A study of Mus musculus with 62 samples.

Results

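Liver transcripts of mice carrying a melanoma that does not cause cachexia were compared with those of mock-injected mice at 4 and 6 weeks, pooled over both weeks. All libraries of these 4 groups were taken, 20 of the 62 in the series, with no selection on expression. They were 5 of NCAC (mice injected with non-cachectic melanoma cells) and 5 of Con (mock injected) at 4 weeks, and the same numbers at 6 weeks. All groups were livers of female mice aged 2 months, and no engineered allele is given for any group. The sample labels give the strain as C57BL/6J, whereas the design text of the series says NCI Ath/nude. The extraction text also names a lung carcinoma line and a 3 week time point that belong to none of these groups, and neither point could be settled. The melanoma line is not named, and how many cell preparations each arm received is not stated. The third arm of the series, CAC, received cachectic melanoma cells, and its 10 libraries of weeks 4 and 6 are used below only to show where NCAC differed from it.

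Cachexia is the wasting of muscle and fat that accompanies some cancers. The liver takes part through the acute phase response, in which cytokines of the interleukin-6 family act through STAT3 in hepatocytes and raise secretion of serum amyloid A, haptoglobin and other plasma proteins. The NCAC arm carries a melanoma without the wasting and so serves as the tumour-bearing control of the series. Hepatocytes supply most liver RNA, and sinusoidal endothelial cells, stellate cells, Kupffer cells and blood supply the rest.

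No gene was called different between NCAC and Con at weeks 4 and 6 (0 of 11434 genes, 0%, limma with Benjamini-Hochberg adjustment, called at adjusted p under 0.05). The smallest adjusted p was 0.368. At unadjusted p under 0.05 there were 1519 genes (13.3%), of which 217 were higher in NCAC (1.9%) and 1302 lower (11.4%). Differences are NCAC minus Con in log2(TPM + 1), where TPM counts a gene's transcripts per 1e+06 transcripts in the library, with a standard error, and a difference of 1 is a doubling for an abundant transcript. The median standard error over genes was 0.10. For 11153 genes (97.5%) the 95% interval lay within 1 either side of 0, and for 9106 (79.6%) it lay within 0.5. A doubling or halving on this scale was therefore outside the interval for most genes. Only 40 genes had a fitted difference of 1 or more in either direction.

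The excess of lower over higher genes depended on the scaling. The median difference over all genes was -0.07 on the deposited TPM. After median-of-ratios rescaling it was 0.00, 808 genes were higher at unadjusted p under 0.05 (7.07%) and 538 lower (4.71%), and 0 were called. Differences of single genes below are on the deposited TPM, and this shift is not removed from them. The direction of a small difference therefore depends on the scaling. Counts of many of the lists are also given after rescaling.

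Some libraries held transcripts of neighbouring organs. Ctrb1, a chymotrypsinogen of the pancreas, was at 187, 806 and 104 TPM in NCAC replicates 3, 4 and 5 of week 4 and at 174 TPM in Con replicate 4 of week 6. It was between 0 and 10.4 TPM in the other 16 libraries, with 0 in 5 of them. Acta1, the actin of skeletal muscle, was at 486 TPM in Con replicate 5 of week 6. These 5 libraries are called the other-tissue libraries below. Without them 0 genes were called, and 217 were higher and 535 lower at unadjusted p under 0.05. Without NCAC replicate 2 of week 4 alone these were 347 and 2174. All 20 tested members of a pancreatic acinar list (34 written) had a difference above 0, with a median of 1.40, and 0 reached an unadjusted p under 0.05. Without the other-tissue libraries the median was 0.30 and 1 was higher. At 4 weeks alone all 20 were higher at unadjusted p under 0.05 (median 3.29), against 1.71% of all genes, and in the week 6 minus week 4 difference 19 were lower (median -3.68), against 1.99%. Both counts were 0 without the other-tissue libraries. The summed level of that list ran from 15.0 to 1002 TPM in Con and from 14.6 to 3471 TPM in NCAC. NCAC replicate 4 of week 4 also lay farthest from its group mean, with a root mean square deviation of 0.59 against 0.23 to 0.37 in the other 19, and had the fewest genes at 1 TPM or more (10500). The 16 hepatocyte markers summed to 132127 to 180125 TPM in Con and 130621 to 179093 TPM in NCAC, so the libraries were liver by these markers. Of 13 melanocyte markers only 2 passed the filter on low values, and their list summed to 5.66 to 12.997 TPM in Con and 9.50 to 23.8 TPM in NCAC. Dct alone ran from 4.00 to 10.8 TPM in Con and from 7.80 to 21.9 TPM in NCAC (0.48 ± 0.16). The other marker tested, Mitf, went the other way (-0.14 ± 0.08). Whether RNA of the melanoma was present was not tested.

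**Figure D1:**
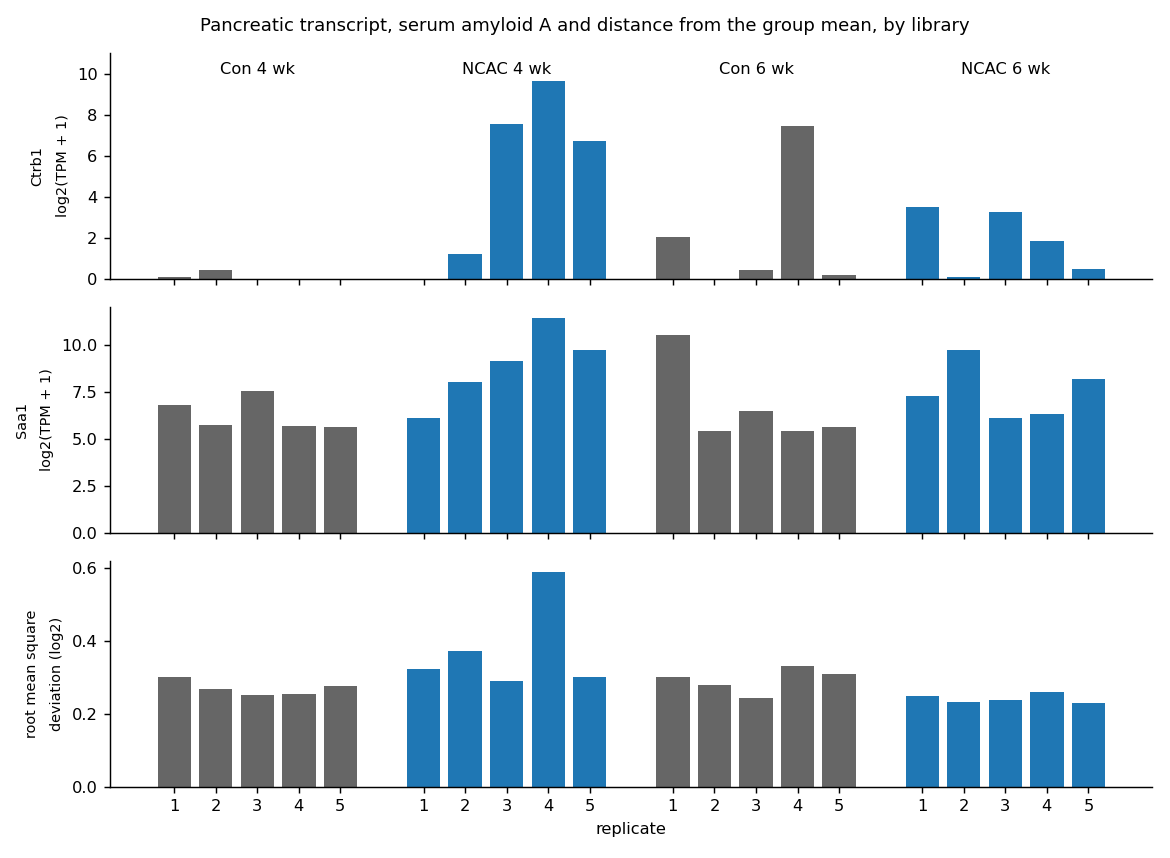
Ctrb1 level, Saa1 level (both log2(TPM + 1)) and root mean square deviation from the group mean (log2 units) in each of the 20 libraries, grey for Con and blue for NCAC. Ctrb1 was high in 3 NCAC libraries of week 4 and 1 Con library of week 6, and NCAC replicate 4 of week 4 was highest in all 3 measures.

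Acute phase proteins, which hepatocytes secrete in inflammation, lay mostly on the higher side. Of the 32 tested members, 12 were higher and 0 lower at unadjusted p under 0.05, against 1.9% and 11.4% of all genes. None was called, and 27 of the 32 had a difference above 0. The median of the list was 0.17, against -0.07 over all genes tested. After median-of-ratios rescaling the counts were 14 and 0, against 7.07% and 4.71% of all genes. Without the other-tissue libraries (15 libraries left) they were 4 and 0, with a median of 0.15, and without NCAC replicate 4 of week 4 alone they were 8 and 0. At 4 weeks alone 8 were higher (median 0.25), or 1 without the other-tissue libraries, and at 6 weeks alone 1 was higher (median 0.20).

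Saa1 encodes serum amyloid A1, an apolipoprotein that the liver releases in inflammation (chromosome 7, 46740497 to 46742980, mm10). At 4 weeks it was at 109, 51.6, 185, 50.1 and 49.4 TPM in Con and at 66.9, 260, 573, 2762 and 845 TPM in NCAC. The highest NCAC value was in replicate 4, the library with the most Ctrb1, and the 3 libraries with high Ctrb1 held the 3 highest Saa1 values of that group. The part of the other tissue in these values was not tested. At 6 weeks Saa1 was at 1488, 42.2, 87.9, 41.7 and 48.3 TPM in Con and at 154, 857, 67.3, 80.3 and 291 TPM in NCAC. All 10 NCAC libraries lay above the Con median, but Con replicate 1 of week 6 lay above 9 of them. The pooled difference was 1.72 ± 0.71 (adjusted p = 0.368), and a test of the arm labels within weeks gave an exact permutation p of 0.0408, or 0.192 adjusted over 20 genes tested that way. Reads of Saa1 and its near copy Saa2 can be split between the genes. Saa2 had a difference of 2.04 ± 0.87, with 25.8 to 1962 TPM in NCAC and 10.6 to 1539 TPM in Con.

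Hp, haptoglobin, binds free haemoglobin in plasma (chromosome 8, 109575128 to 109579172). Its level ran from 1636 over a median of 2286 to 3876 TPM in Con and from 2042 over 3407 to 5490 TPM in NCAC. At 6 weeks 4 of 5 Con libraries lay below all 5 NCAC libraries, which were at 3275, 3997, 3538, 3702 and 3263 TPM, and Con replicate 1 at 3876 TPM lay among them. The means were 3551 ± 946 and 2399 ± 642 TPM (SD, n = 10 per arm), and the difference was 0.56 ± 0.16 (adjusted p = 0.368). Lcn2, a protein that withholds iron from bacteria, had a difference of 1.19 ± 0.46, with 10.5 to 137 TPM in NCAC and 4.43 to 96.9 TPM in Con. Orm2, a plasma glycoprotein, had 0.90 ± 0.32, and all 10 NCAC libraries (96.5 to 357 TPM) lay above the Con median of 77.8 TPM. Differences smaller than that of Orm2 were fitted for the haem carrier Hpx (0.35 ± 0.13), the protease inhibitor Serpina10 (0.19 ± 0.07) and Saa3 (0.57 ± 0.20). Some acute phase genes were near 0 or below it. The fibrinogen chain Fga differed by 0.08 ± 0.08, the pentraxin Crp by -0.10 ± 0.08 and the iron hormone Hamp by -0.31 ± 0.40.

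Of the signalling genes upstream, Socs3, a feedback inhibitor of STAT3, was the 1 higher among 19 tested members of the IL-6 and STAT3 list at unadjusted p under 0.05. It ranged from 2.39 to 7.89 TPM in Con and from 3.39 to 13.6 TPM in NCAC, and 4 NCAC libraries exceeded the highest Con value (0.49 ± 0.21). Its exact permutation p was 0.0479, or 0.192 after adjustment. The kinases Jak2 (-0.26 ± 0.10) and Jak1 (-0.25 ± 0.11) and the shared receptor chain Il6st (-0.31 ± 0.14) were the 3 lower. These 3 of 19 were near the share over all genes (11.4% lower, 1.9% higher). The median of the list was -0.03. After rescaling 1 was higher and 1 lower, and without the other-tissue libraries 0 were in either direction. None was called.

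**Figure D2:**
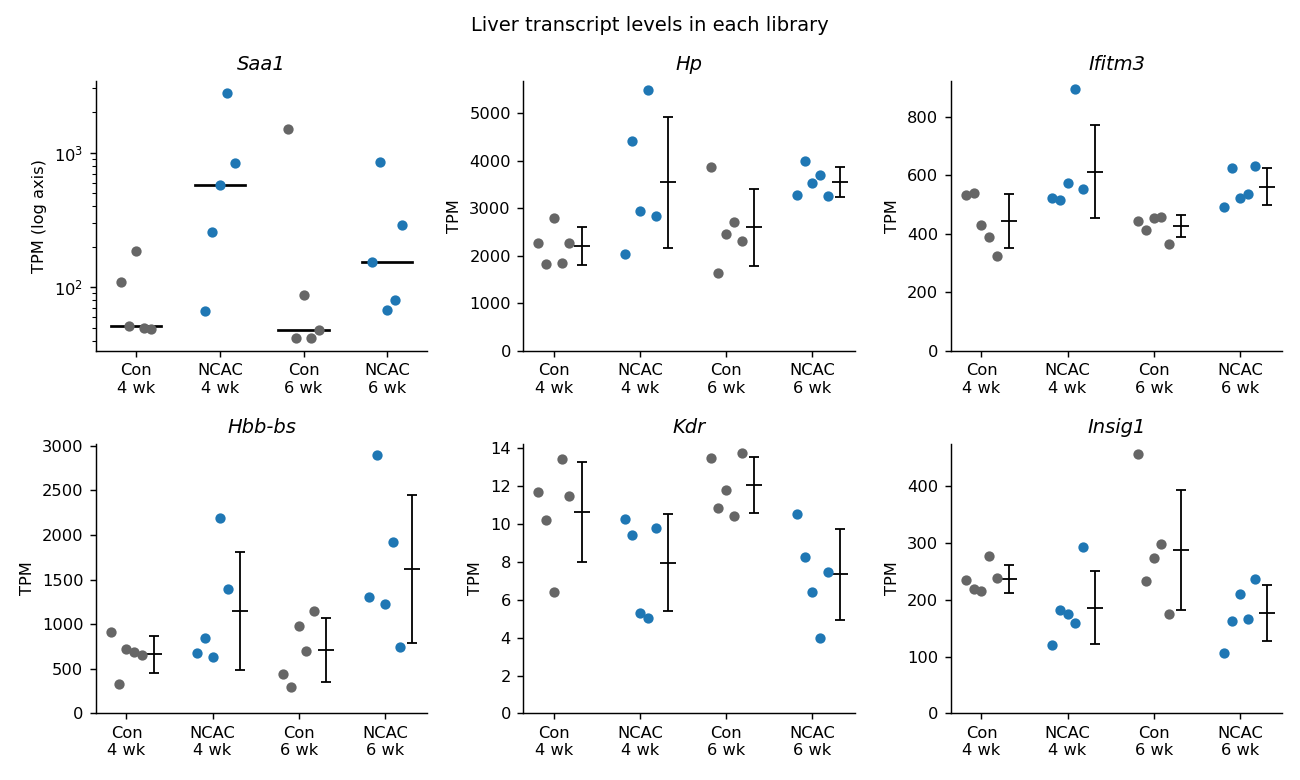
TPM of Saa1 (log axis), Hp, Ifitm3, Hbb-bs, Kdr and Insig1 in each library of the 4 groups, 5 points per group, with a bar at the median for Saa1 and the mean with its SD beside the points for the others. At 6 weeks all 5 NCAC libraries lay above all 5 of Con for Ifitm3, and the groups overlapped in the other panels and at 4 weeks.

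Interferon-stimulated genes act against viruses and are switched on by interferons. Of 49 tested, 4 were higher and 1 lower at unadjusted p under 0.05, against 1.9% and 11.4% of all genes. The median was 0.18 and 34 of the 49 lay above 0. After median-of-ratios rescaling 13 were higher and 0 lower (7.07% and 4.71% of all genes), and without the other-tissue libraries 1 and 1. The weeks were unlike each other. At 4 weeks 10 were higher and 0 lower (median 0.30, 39 above 0), and at 6 weeks 2 were higher and 0 lower (0.971% of all genes were higher), with a median of -0.01 and 24 above 0. The week 6 minus week 4 difference lay above 0 for 5 of the 49 (median -0.28), with 4 lower and 0 higher, and without the other-tissue libraries 8 were lower (median -0.46). None was called. Ifitm3, a membrane protein that blocks virus entry (chromosome 7, 141009586 to 141010770), had the smallest p of the higher genes that qualified for naming. At 4 weeks it was at 534, 541, 430, 388 and 325 TPM in Con and at 524, 517, 573, 894 and 554 TPM in NCAC. At 6 weeks it was at 444, 415, 456, 457 and 365 TPM in Con and at 492, 625, 524, 536 and 632 TPM in NCAC. Every NCAC library was above the Con median of 437 TPM and 5 were above every Con library. The means were 587 ± 117 and 435 ± 67.9 TPM (SD, n = 10 per arm), and the difference was 0.43 ± 0.11 (95% interval 0.20 to 0.65, adjusted p = 0.368).

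Isg15, a ubiquitin-like protein induced by interferon, ranged from 3.40 to 15.1 TPM in Con and from 8.90 to 18.3 TPM in NCAC (0.55 ± 0.18). Bst2, which tethers budding virus, ranged from 97.6 to 195 TPM in Con and from 164 to 246 TPM in NCAC (0.34 ± 0.11), with every NCAC library above the Con median. Of 23 tested genes of MHC class I presentation, which cuts and displays peptides to T cells, 4 were higher and 0 lower. They were the immunoproteasome subunits Psmb10 (0.27 ± 0.10) and Psmb9 (0.36 ± 0.15), the peptide transporter Tap2 (0.19 ± 0.08) and its partner Tapbp (0.22 ± 0.09). Over all genes 1.9% were higher, or 7.07% after rescaling. After rescaling 7 of the 23 were higher, and without the other-tissue libraries 0 were. All adjusted p-values of these genes were 0.368.

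Erythroid transcripts had a list median of 0.52 over 10 tested members of 18 written. The hemoglobins carry oxygen in red cells, and in liver their transcripts come from blood and from any blood formation there. In bulk tissue more cells of a type and more RNA per cell cannot be told apart, nor can fewer cells and less RNA. At unadjusted p under 0.05, 6 members were higher and 0 lower (1.9% and 11.4% of all genes), and without the other-tissue libraries 4 and 0. At 4 weeks alone 0 were higher (median 0.40) and at 6 weeks alone 6 were (median 0.46). Hbb-bs, a beta globin (chromosome 7, 103826534 to 103828096), was at 907, 331, 722, 684 and 657 TPM in Con at 4 weeks and at 672, 842, 634, 2192 and 1392 TPM in NCAC. At 6 weeks it was at 444, 297, 984, 696 and 1147 TPM in Con and at 1301, 2891, 1223, 1918 and 739 TPM in NCAC. Across both weeks 6 of 10 NCAC libraries exceeded every Con library, and the rest overlapped them. The difference was 0.95 ± 0.29 (adjusted p = 0.368). Hbb-bt (0.72 ± 0.26) and the haem synthesis enzyme Alas2 (0.54 ± 0.18) were on the same side, and Klf1, a transcription factor of red cell precursors, had -0.34 with an unadjusted p of 0.27. Copies of the globin genes can share reads. The summed level of the erythroid list ran from 859 to 2501 TPM in Con and from 1601 to 6469 TPM in NCAC.

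Markers of the sinusoidal endothelium, which lines the liver capillaries and clears particles from blood, were on the lower side. All 19 tested members of 20 written had a difference below 0, with a median of -0.33. At unadjusted p under 0.05, 10 were lower and 0 higher, against 11.4% of all genes lower. After median-of-ratios rescaling 8 were lower, 1 lay above 0 and the median was -0.25. Without the other-tissue libraries 5 were lower and the median was -0.23. At 4 weeks alone 1 was lower and 4 lay above 0 (median -0.18), and at 6 weeks alone 13 were lower (median -0.48), against 5.75% of all genes. After rescaling 8 were lower at 6 weeks, and without the other-tissue libraries 9. The week 6 minus week 4 difference lay below 0 for all 19 on the deposited TPM (median -0.30), with 1 at unadjusted p under 0.05, and for 18 without the other-tissue libraries. The summed level ran from 138 to 288 TPM in Con and from 99.6 to 227 TPM in NCAC.

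Kdr encodes the main receptor for vascular endothelial growth factor (chromosome 5, 75932827 to 75978458). At 4 weeks it was at 11.7, 10.2, 6.41, 13.4 and 11.5 TPM in Con and at 10.3, 9.42, 5.29, 5.06 and 9.80 TPM in NCAC. At 6 weeks it was at 13.5, 10.9, 11.8, 10.4 and 13.8 TPM in Con and at 10.5, 8.28, 6.41, 4.00 and 7.47 TPM in NCAC. All 10 NCAC libraries lay below the Con median of 11.6 TPM, and 4 below every Con library. The difference was -0.54 ± 0.16 (95% interval -0.87 to -0.22, adjusted p = 0.368). Bmp2, a growth factor by which endothelial cells instruct hepatocytes in iron sensing (chromosome 2, 133552159 to 133562885), had the smallest p among the lower genes named. It ranged from 4.42 over 7.15 to 9.03 TPM in Con and from 2.91 over 5.10 to 6.78 TPM in NCAC, with a difference of -0.46 ± 0.11 (adjusted p = 0.368). The antibody receptor Fcgr2b (-0.46 ± 0.13), the endothelial secreted protein Oit3 (-0.49 ± 0.14) and the endothelial lectin Clec14a (-0.46 ± 0.13) were also among the 10 lower genes with the smallest p. Ptprb, a phosphatase of endothelial cells (-0.56 ± 0.17), and the angiopoietin receptor Tek (-0.41 ± 0.14) had similar values, whereas Wnt2, a zonation signal, had -0.01.

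Stellate cells, which store vitamin A and deposit matrix, also had a list median below that of all genes. Of 13 tested markers 5 were lower and 0 higher at unadjusted p under 0.05 (11.4% of all genes were lower), with a median of -0.23. After rescaling 3 were lower, and without the other-tissue libraries 0 were lower and 1 was higher, with a median of -0.08. The members with the smallest p were Reln (-0.37 ± 0.14), the retinol esterifying enzyme Lrat (-0.40 ± 0.16), the growth factor Hgf (-0.48 ± 0.19) and the receptor Pdgfra (-0.23 ± 0.10). For the 17 tested Kupffer cell and macrophage markers 0 were past that threshold in either direction and the median was -0.01. The weeks lay on opposite sides. At 4 weeks the median was 0.26, with 14 above 0 and 1 higher, and at 6 weeks it was -0.27, with 0 above 0 and 1 lower. The median of the week 6 minus week 4 difference was -0.58, with 3 lower and 0 called, and without the other-tissue libraries it was -0.84, with 6 lower. After rescaling the 6 week median was -0.16, with 1 above 0.

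**Figure D3:**
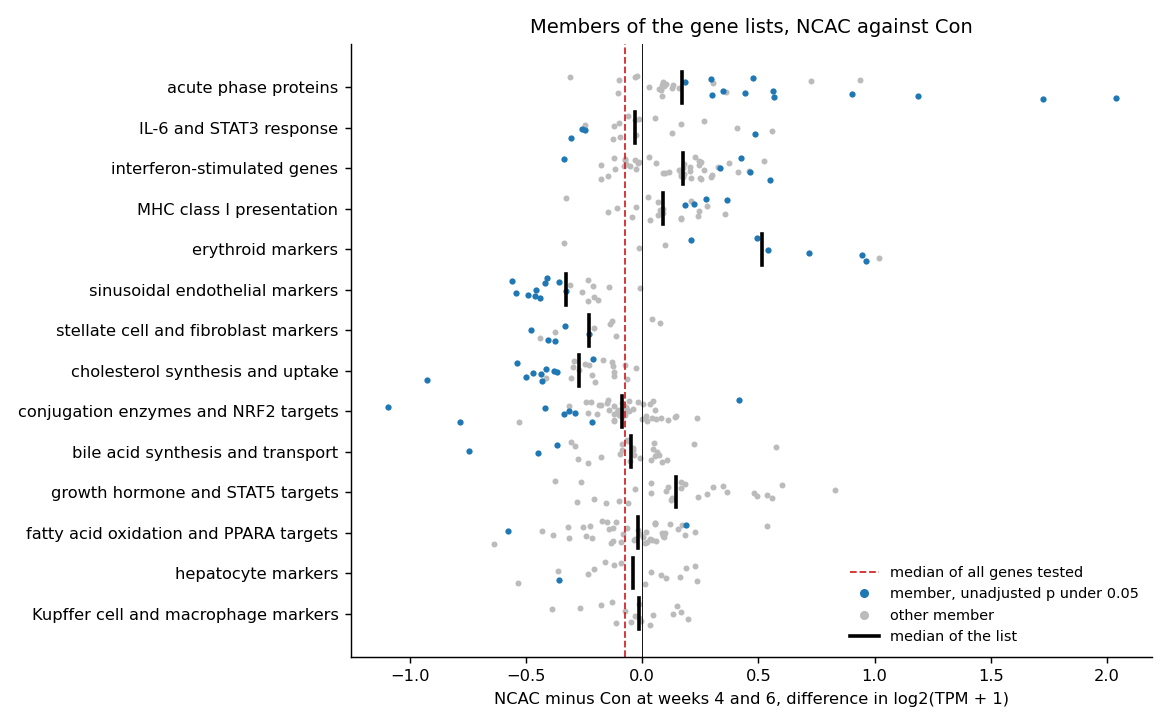
Difference in log2(TPM + 1), NCAC minus Con at weeks 4 and 6, of every tested member of 14 gene lists, 1 point per gene, blue where the unadjusted p was under 0.05, with a black bar at each list's median and a dashed line at the median of all genes (-0.07). All members of the sinusoidal endothelial and cholesterol lists lay below 0 on the deposited TPM (1 and 3 lay above 0 after rescaling), acute phase and erythroid members lay mostly above, and no gene was called.

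Genes of cholesterol synthesis and uptake are switched on together by SREBP2 when cell sterol is low. All 27 had a difference below 0, with a median of -0.27. At unadjusted p under 0.05, 10 were lower and 0 higher, against 11.4% of all genes lower. After rescaling 5 were lower and 3 lay above 0 (median -0.18), against 4.71% of all genes lower. Without the other-tissue libraries 2 of the 27 were lower (median -0.22), against 535 of all 11434 genes. At 4 weeks alone 0 were lower (median -0.25) and at 6 weeks alone 5 were (median -0.28). Insig1, which holds SREBP back, was at 235, 219, 216, 276 and 238 TPM in Con at 4 weeks and at 120, 182, 175, 159 and 293 TPM in NCAC. At 6 weeks it was at 457, 233, 274, 298 and 174 TPM in Con and at 107, 162, 210, 167 and 236 TPM in NCAC. The groups overlapped in both weeks, and across them 5 of 10 NCAC libraries lay below every Con library and 9 below the Con median of 236 TPM, while NCAC replicate 5 of week 4 lay above every Con library of its week. The pooled difference was -0.54 ± 0.17 (adjusted p = 0.368). The cyclase Lss had -0.47 ± 0.16 and the isomerase Idi1 -0.50 ± 0.19. Srebf2, which encodes SREBP2, had -0.20 with an unadjusted p of 0.097.

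Counts for drug and bile handling at unadjusted p under 0.05 leaned lower, near the share over all genes (11.4% lower) with all 20 libraries. Without the other-tissue libraries 8 of 52 conjugation enzymes and NRF2 targets, 6 of 42 P450s and 3 of 28 bile acid genes were lower. Those higher were 1, 1 and 0, and the medians were -0.12, -0.02 and 0.01. Over all 11434 genes 535 were lower in that setting, so these counts did not fall with the background. With all 20 libraries, 1 of 52 tested conjugation enzymes and NRF2 targets was higher and 7 lower. Their median was -0.09, close to that of all genes. After rescaling the counts were 2 and 4. Of 42 tested drug-metabolising P450s 1 was higher and 3 lower, with a median of -0.07 and 14 above 0, and after rescaling 2 and 1, with a median of 0.02. The glutathione transferase Gsta2 had -0.79 ± 0.26, with 41.1 to 111 TPM in Con and 14.4 to 68.3 TPM in NCAC. Of 28 bile acid genes 3 were lower and 0 higher, with a median of -0.05, and after rescaling 1 and 0. The 3 were transporters. Slco1b2, which takes up bile acids and drugs, and Abcc2, which exports conjugates into bile, were lowest in NCAC replicate 4 of week 4, at 137 and 25.9 TPM. Their differences were -0.37 ± 0.17 and -0.45 ± 0.21, and the third, Abcc4, had -0.74 ± 0.25. Cyp7a1, the rate-limiting enzyme of bile acid synthesis, had -0.23 ± 0.50 and a positive value, 0.40, without the other-tissue libraries.

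Growth hormone and STAT5 targets include the major urinary proteins, which carry pheromones. None of 28 tested was past unadjusted p 0.05 in either direction, and the median was 0.15. Without the other-tissue libraries 3 were higher and 0 lower (217 of all 11434 genes were higher). At 4 weeks alone 0 were past it (median -0.11). At 6 weeks alone 6 were higher and 0 lower (median 0.36), against 0.971% of all genes higher. In the week 6 minus week 4 difference 4 were higher and 0 lower (median 0.38, 23 above 0), against 0.446% of all genes higher. None was called. Mup3 ranged from 809 to 4161 TPM in Con and from 1671 to 4085 TPM in NCAC (0.49 ± 0.28). Igf1, the main growth hormone effector made by liver, had -0.10 ± 0.09. Of 45 genes of fatty acid oxidation, the PPARA programme of fasting, 1 was higher (Creb3l3, a fasting-induced factor, 0.19 ± 0.07) and 1 lower (Pdk4, a kinase that spares glucose, -0.58 ± 0.22), with a median of -0.02, and 4 and 1 after rescaling. Alb, albumin, had means of 86270 ± 11076 TPM in NCAC and 85211 ± 8817 TPM in Con (SD, n = 10 per arm) and a difference of 0.01 ± 0.09.

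Of the 20 genes reported whatever their result, 5 had an exact permutation p under 0.05 before adjustment and 0 after (two-sided, 63504 relabellings within weeks, smallest possible p 3.149e-05). The 5 were Saa1, Saa2, Lcn2, Orm2 and Socs3, with p of 0.0408, 0.0471, 0.0312, 0.0186 and 0.0479. In the limma fit 5 of the 20 genes were also higher and 0 lower at unadjusted p under 0.05. Without the other-tissue libraries 1 was higher, and without NCAC replicate 4 of week 4 alone 2 were. The permutation test was not repeated without those libraries. Among the other genes of the 20, the zinc-binding metallothioneins Mt1 and Mt2 had differences of 0.73 ± 0.40 and 0.94 ± 0.48. The stress hormones Fgf21 (0.17 ± 0.20) and Gdf15 (-0.12 ± 0.19), the gluconeogenic enzyme Pck1 (-0.09 ± 0.19), the lipogenic factor Srebf1 (-0.01 ± 0.15) and the lipase inhibitor Angptl4 (-0.02 ± 0.20) were each within 1 standard error of 0. So were Igfbp1 (0.22 ± 0.49) and Car3 (0.06 ± 0.16).

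The rest of the 20 named genes, those with the smallest p in either direction, were in none of the lists, apart from Serping1 of the complement and coagulation list. On the higher side were Serping1, the C1 inhibitor of complement (0.25 ± 0.07), and Fkbp11, a folding enzyme of the secretory pathway (0.46 ± 0.12). Serping1 ranged from 489 over 578 to 645 TPM in Con and from 550 over 704 to 828 TPM in NCAC, with 6 NCAC libraries above every Con library. Fkbp11 ranged from 7.16 to 16.5 TPM in Con and from 13.1 to 19.4 TPM in NCAC, all 10 above the Con median of 11.7 TPM. The secreted protein Wfdc2 (0.54 ± 0.14), the dicarboxylate transporter Slc13a3 (0.51 ± 0.15), Serinc2 (0.48 ± 0.13), Wdyhv1 (0.30 ± 0.09) and the prefoldin subunit Pfdn2 (0.20 ± 0.06) made up the rest. On the lower side Egln1, the prolyl hydroxylase that marks hypoxia-inducible factors for breakdown (-0.22 ± 0.06), ranged from 17.3 over 19.5 to 21.6 TPM in Con and from 14.3 over 16.9 to 19.7 TPM in NCAC, with 7 NCAC libraries below every Con library. Hacl1, a peroxisomal lyase of fatty acid breakdown, had -0.41 ± 0.11, and all 10 NCAC libraries (103 to 178 TPM) lay below the Con median of 183 TPM. The RNA polymerase III subunit Polr3g (-0.39 ± 0.11), Svip (-0.26 ± 0.07) and Rnf113a2 (-0.29 ± 0.08) completed that side beside Bmp2, Fcgr2b, Oit3, Clec14a and Kdr. All had an adjusted p of 0.368.

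Whether the NCAC difference itself changed from week 4 to week 6 was tested as an interaction. None was called (0 of 11434, 0%, smallest adjusted p 0.999), and 279 genes had an unadjusted p under 0.05 (2.44%), 51 higher (0.446%) and 228 lower (1.99%) at week 6. Without NCAC replicate 4 of week 4 these were 54 and 438, and without the other-tissue libraries 386 and 676. Within week 4 alone 0 genes were called (0%) and 487 had an unadjusted p under 0.05 (4.26%), 196 higher (1.71%) and 291 lower (2.55%). The 20 pancreatic genes are among the 196, and 19 of them are among the 228. The week 4 counts were 172 and 229 without the other-tissue libraries. They were 329 and 616 without NCAC replicate 1, 346 and 1054 without NCAC 2, 113 and 75 without NCAC 4, 179 and 801 without NCAC 5 and 105 and 134 without Con 5, all of that week. Within week 6 alone 0 were called (0%) and 768 had an unadjusted p under 0.05 (6.72%), 111 higher and 657 lower. These were 87 and 423 without NCAC replicate 3 of that week, 186 and 1654 without NCAC replicate 4 of week 4, which enters through the shared estimate of the spread, and 439 and 967 without the other-tissue libraries. Cyp4a14, a fatty acid hydroxylase and PPARA target, had 0.90 at 4 weeks and -1.68 at 6 weeks, an interaction of -2.58 ± 0.65 (unadjusted p = 0.000827, adjusted p = 0.999). Bzw2, a translation regulator, had 0.19 and -0.39. Mup3 had -0.15 and 1.14.

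Animals of weeks 2 and 8 share no library with those of weeks 4 and 6 and gave the same contrast a separate time. There 9 genes were called (0.0787%), 6 higher and 3 lower, and 1587 had an unadjusted p under 0.05 (13.9%). Akr1c19, an aldo-keto reductase, rose by 0.70 ± 0.11 (adjusted p = 0.0152), the erythroid carbonic anhydrase Car1 by 0.56 ± 0.10 (adjusted p = 0.0356) and Scoc by 0.41 ± 0.08 (adjusted p = 0.0438). The fatty acid binding protein Fabp7 fell by 0.76 ± 0.13 (adjusted p = 0.0249) and the lysosomal protease Lgmn fell by 0.37 ± 0.06 (adjusted p = 0.0259). At weeks 4 and 6 the same 5 genes had -0.21, -0.01, 0.15, 0.08 and -0.07. By the same rule (at least 100 TPM of Ctrb1 or 10 TPM of Acta1) the other-tissue libraries of these weeks were Con replicates 2 and 4 and NCAC replicates 1 and 5 of week 8. Without them 11 genes were called, 4 of them shared with the 9, and the genes at unadjusted p under 0.05 went from 764 higher (6.68%) and 823 lower (7.2%) to 441 and 1351. Akr1c19 (adjusted p = 0.0251) and Scoc (0.0455) were still called, whereas Car1 (adjusted p = 0.0542), Fabp7 (0.06) and Lgmn (0.0542) were not. The fit over all 62 libraries called 2 genes, Scoc and Cyth4. The count of 9 moved to between 2 and 290 when 1 library was left out, the highest without Con replicate 5 of week 8. It also moved by over 1.5 times without any 1 of Con replicates 2 to 5 of week 2, Con 1 and 3 of week 8, NCAC 1 to 5 of week 2 and NCAC 1, 2 and 4 of week 8.

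The genes of weeks 4 and 6 were then read in these other animals. Of the 1519 genes with an unadjusted p under 0.05 at weeks 4 and 6, 491 (32.3%) had the same sign at weeks 2 and 8, against 4510 of all 11434 genes (39.4%). At weeks 2 and 8, 41 of the 1519 had an unadjusted p under 0.05 with the same sign and 86 with the opposite sign. Over all 11434 genes these counts were 644 and 943. Most of the 1519 were lower, and the median difference of all genes was -0.07 at weeks 4 and 6 and 0.01 at weeks 2 and 8. The sign counts carry this shift, and they were not repeated after rescaling. Scoc (0.15 ± 0.07 at weeks 4 and 6) was the 1 gene of the 1519 that was called at weeks 2 and 8, in the same direction. Of the 217 higher genes 108 (49.8%) had the same sign, and of the 1302 lower genes 383 (29.4%). Among the 20 named genes 8 had the same sign, and 0 of these had an unadjusted p under 0.05, while Svip (0.18 ± 0.06) and Egln1 (0.13 ± 0.06) did with the opposite sign. Hbb-bs had -0.16 ± 0.33, Hp -0.03 ± 0.12, Ifitm3 -0.18 ± 0.12 and Kdr 0.14 ± 0.11 at weeks 2 and 8. The cholesterol list had a median of 0.17 there, with Insig1 at -0.03 ± 0.10, the erythroid list -0.02, the interferon list -0.16 and the acute phase list -0.01. Of the 19 endothelial markers 16 lay below 0 there, unlike Kdr, with a median of -0.10, and 6 were lower and 0 higher at unadjusted p under 0.05, against 7.2% of all genes lower. The lower ones were 7 without the other-tissue libraries, where genes lower over all 11434 rose from 823 to 1351. Of the 17 Kupffer cell and macrophage markers 13 were lower and 0 higher (median -0.39), and 10 were lower without those libraries. Saa1 was on the same side in both, with 1.10 ± 0.43 at weeks 2 and 8 (adjusted p = 0.265). The difference between these pairs of weeks was not tested.

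**Figure D4:**
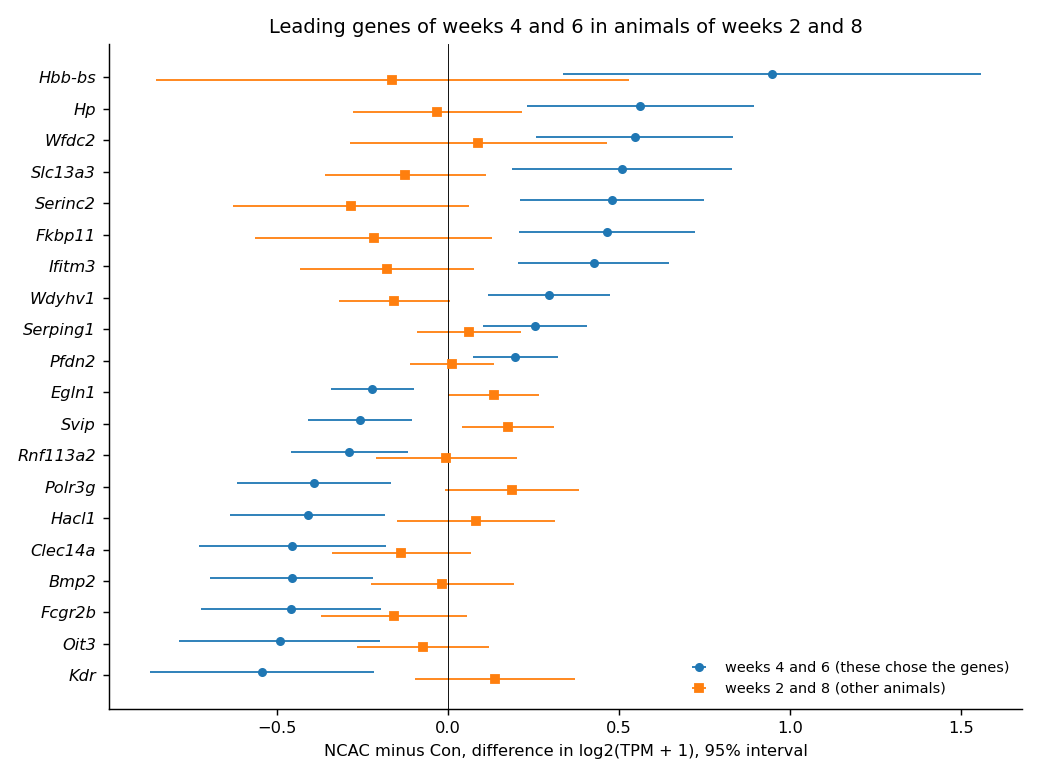
Difference in log2(TPM + 1), NCAC minus Con, of the 10 higher and 10 lower genes with the smallest p at weeks 4 and 6, with 95% intervals, at weeks 4 and 6 (blue circles) and in the other animals of weeks 2 and 8 (orange squares). The genes were chosen on the blue values, and 8 of the 20 had the same sign in the orange ones.

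Set against the cachectic arm at the same weeks, NCAC livers differed in many genes. In CAC against NCAC 840 genes were called (7.35%), 470 higher (4.11%) and 370 lower (3.24%), with 89 and 69 of them by 1 or more. Without NCAC replicate 4 of week 4 the counts were 592 and 689. Because both comparisons use the NCAC libraries, only their own values are given. Saa1 was at 11712 ± 7532 TPM in CAC, 596 ± 820 TPM in NCAC and 215 ± 449 TPM in Con (SD, n = 10 per arm), and rose from NCAC to CAC by 4.96 ± 0.63 (adjusted p = 3.04e-05). Hp was at 11641 ± 4477 TPM in CAC and rose by 1.65 ± 0.20 (adjusted p = 1.29e-05). Lcn2 rose by 3.64 ± 0.42 (adjusted p = 8.62e-06) and Prtn3, a protease of neutrophil granules, by 4.10 ± 0.38 (adjusted p = 6.41e-07). Of the 32 acute phase genes 26 were called higher in CAC than in NCAC and 0 lower.

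Other groups moved the other way in that comparison, in which 4.11% of all genes were called higher and 3.24% lower. Of the growth hormone and STAT5 targets 12 of 28 were called lower in CAC than in NCAC and 0 higher, and of the fatty acid oxidation genes 18 of 45 and 0. Mup16 fell by 2.95 ± 0.74 (adjusted p = 0.0164), the P450 enzyme Cyp2c69 by 2.89 ± 0.43 (adjusted p = 0.000161) and the organic anion transporter Slco1a1 by 2.76 ± 0.60 (adjusted p = 0.006). Mup16 had an adjusted p of 0.0527 without the other-tissue libraries of these arms, which were NCAC replicates 3, 4 and 5 of week 4 and CAC replicate 1 of week 6 (Ctrb1 at 146 TPM and Acta1 at 78.0 TPM). NCAC against Con had 0.83 ± 0.44, 0.41 ± 0.47 and 0.57 ± 0.69 for these 3 genes. Of the 19 endothelial markers 12 were called higher in CAC than in NCAC. Kdr was at 7.65 ± 2.37 TPM in NCAC, 11.2 ± 1.90 TPM in CAC and 11.4 ± 2.15 TPM in Con. For Fcgr2b the means in the same order were 13.9 ± 3.23, 28.5 ± 7.50 and 19.4 ± 3.27 TPM. Both genes were named because they were lower in these NCAC libraries than in Con. A low NCAC mean beside CAC is therefore partly built into that choice. Of the 27 cholesterol genes 1 was called higher and 1 lower, near the share over all genes. Insig1 was at 181 ± 54.4 TPM in NCAC, 177 ± 87.1 TPM in CAC and 262 ± 77.1 TPM in Con. Of the 49 interferon-stimulated genes 0 were called higher and 5 lower in CAC. Bst2 was among the lower, at 132 ± 33.9 TPM in CAC and 186 ± 26.7 TPM in NCAC (-0.52 ± 0.13, adjusted p = 0.0154). Insig1 and Bst2 were likewise named for their NCAC against Con values.

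**Figure D5:**
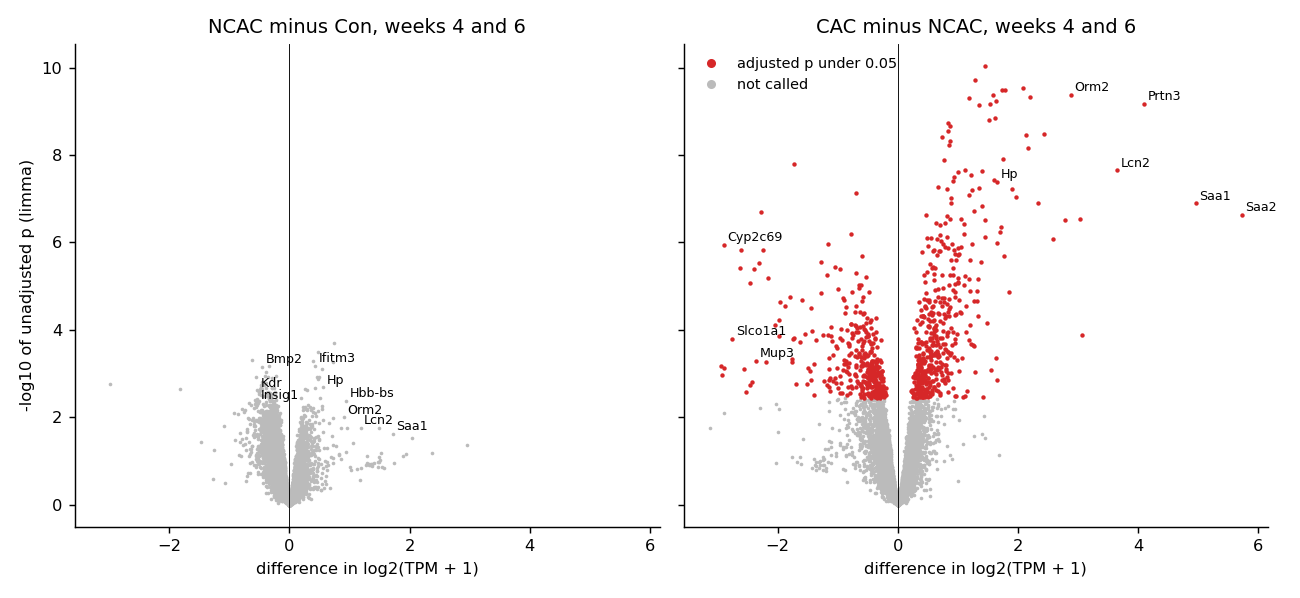
Difference in log2(TPM + 1) against -log10 of the unadjusted limma p for 11434 genes, NCAC minus Con (left) and CAC minus NCAC (right) at weeks 4 and 6, red where the adjusted p was under 0.05. The left panel has 0 red genes and the right panel 840.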

How the data were processed

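The authors deposited 1 table of TPM, a gene's transcripts per 1e+06, for 47643 gene symbols in 62 libraries, and the columns do sum to 1e+06. Per the labels' protocols, Trizol RNA of biological replicates was made into stranded TruSeq mRNA libraries and sequenced on a NovaSeq instrument. The genome build was mm10, per the submitters' processing notes. Which aligner and quantifier made them is not given in the sources used here. TPM keep no depth, so the depth of each library and its counting error are unknown and no count model was used. Whether replicates were housed, injected or sequenced together is not stated, and p-values measure only the spread between these libraries. No pair of the 20 libraries held identical values.

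A gene was tested if 5 or more of the 20 libraries had 1 TPM or more (11434 genes). Log2(TPM + 1) values went into limma 3.58.1 (R 4.3.3), with terms for week and arm, empirical Bayes moderation with a trend and Benjamini-Hochberg adjustment over all genes tested. A fold on this scale understates the change of low transcripts. Single weeks and the interaction came from a fit of the 4 group means. The other comparisons used the same genes. The analysis was tested on simulated data. Positions are from GENCODE M21 (mm10), matched by symbol for 11050 tested genes.

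Same-numbered replicates did not deviate together, so no block was used. The comparison, the 54 gene lists and the 20 genes reported whatever their result were chosen with earlier results of these data known. Named are the 10 genes with the smallest p in each direction (5 for other comparisons, by size of difference where called) with a mean of 5 TPM or more, the same sign when any 1 library is left out and no predicted or clone name, up to 4 members with the smallest p of each list described, and those 20 genes. Some genes that this rule picks are not reported here. Others named from the lists (such as Fga, Crp, Hpx, Klf1, Ptprb, Tek, Wnt2, Idi1 and Srebf2) were chosen after their values were seen.

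Alternatives were pseudocounts of 0.1 and 5, no filter, a mean of 5 TPM, median-of-ratios and quantile rescaling, removal of the 20 highest genes, robust moderation, library weights, all 62 libraries, a replicate block, no week term, a minimum difference of 1, and leaving out the 4 pancreatic libraries (at least 100 TPM of Ctrb1), the 5 other-tissue libraries (those or at least 10 TPM of Acta1) or each library. Figures used Python 3.11.15, NumPy 2.4.6, pandas 2.3.3 and matplotlib 3.10.9.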

Additional observations from a re-analysis of the deposited data

Results flagged for a closer look

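In 344 groups of 5 libraries looked at (86 genes), 25 (7.3%) held 1 library far from the other 4 by Dixon's criterion, which chance meets in about 1 group of 20. NCAC replicate 4 of week 4 held 5 of these, with 894 TPM of Ifitm3, 246 of Bst2, 137 of Slco1b2, 25.9 of Abcc2 and 7.43 of Klb. NCAC replicate 5 of week 4 had 708 TPM of Pck1 (1359 to 1545 in the others) and 31.9 of Alas2, and NCAC replicate 2 of week 4 had 18.2 of Gsta2. In NCAC at 6 weeks, replicate 3 had 2.43 TPM of Gdf15, 35.8 of Cyp7a1 (161 to 230 in the others) and 5.66 of Saa3, replicate 2 had 8.92 of Rnf39 and replicate 5 had 5.11 of Abcc4.

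Among Con livers of week 6, replicate 1 had 1488 TPM of Saa1 (41.7 to 87.9 in the others) and 1539 of Saa2 (15.7 to 32.4 in the others). Replicate 2 had 225 TPM of C4bp and 78.6 of Angptl4, replicate 3 had 24.6 of Pfdn2 and 4.65 of Lrat, and replicate 4 had 7.16 of Fkbp11. Replicate 5, the library with Acta1, had 9.63 TPM of Tle1, 1521 of Car3 and 106 of Sult1d1. Con replicate 5 of week 4 had 4.07 TPM of Wdyhv1 and 9.15 of Tap2.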

How the results depend on the processing

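NCAC against Con at weeks 4 and 6 had 0 called genes under every alternative run, including the replicate block (0, smallest adjusted p 0.416), and with each library left out, where the smallest adjusted p was 0.0613, without NCAC replicate 4 of week 6. The single weeks and the interaction also had 0 throughout, the replicate block included. At unadjusted p under 0.05 the genes higher and lower, 217 and 1302, became 682 and 660 after quantile normalization, 276 and 1067 when the 20 most abundant genes were taken out, 175 and 746 without the pancreatic libraries, 217 and 535 without the other-tissue libraries, 175 and 777 with a mean of at least 5 TPM, and 347 and 2174 without NCAC replicate 2 of week 4. Same-numbered replicates correlated at -0.232 to 0.126 over 10 pairs, and 1 library correlated best with its own number.

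The 9 calls of weeks 2 and 8 became 16 after median-of-ratios rescaling and 2 with all 62 libraries, and 2 to 290 with 1 library left out. The 840 calls of CAC against NCAC became 1334 with all 62 libraries and 620 to 1281 with 1 library left out. Signs of small differences turned. After median-of-ratios rescaling Pck1 was 3.75e-06, Srebf1 0.0796 and Angptl4 0.0726, and after quantile normalization Srebf1 was 0.00970 and Angptl4 0.00514. With library weights Alb was -0.0103. Without the pancreatic libraries Pck1 was 0.0886, Cyp7a1 0.234, Srebf1 0.0210 and Angptl4 0.125. Without the other-tissue libraries Igf1 was 0.0329, Igfbp1 -0.0855, Pck1 0.0901, Cyp7a1 0.401, Srebf1 0.0705 and Angptl4 0.0969. With 1 library left out the ranges were -0.0198 to 0.0464 for Alb, -0.114 to 0.0947 for Angptl4, -0.0119 to 0.167 for Car3, -0.234 to 0.0150 for Gdf15, -0.5557 to 0.00693 for Hamp, -0.200 to 0.0117 for Pck1 and -0.0882 to 0.0669 for Srebf1. The cause was not tested. Depth is unknown, so counting error of low transcripts could not be set beside these values.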

Other observations

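Translation and respiration genes, not described above, had small differences between NCAC and Con at weeks 4 and 6, and 0 were called. Of 77 cytosolic ribosomal protein genes 71 had a difference above 0, with a median of 0.09. At unadjusted p under 0.05, 4 were higher and 0 lower (1.9% and 11.4% of all genes). The higher ones included Rpl24 (0.28 ± 0.10) and Rpl14 (0.24 ± 0.10). Without the other-tissue libraries the median was -0.02. Of 75 nuclear-encoded oxidative phosphorylation genes 59 lay above 0, with a median of 0.07, and 3 were higher and 1 lower at unadjusted p under 0.05. Over all genes these shares were 1.9% and 11.4%. After median-of-ratios rescaling 70 lay above 0 (median 0.16) and 15 were higher and 0 lower, against 7.07% and 4.71% of all genes. Without the other-tissue libraries the median was -0.01, with 3 higher and 1 lower. The 13 mitochondrially encoded transcripts all had a difference below 0 (median -0.14), with mt-Cytb at -0.23 ± 0.10, and after median-of-ratios rescaling the median was -0.05.

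Of 22 circadian clock genes 0 were higher and 2 lower at unadjusted p under 0.05, near the share over all genes (1.9% and 11.4%). The median was -0.12. Without the other-tissue libraries 0 were higher and 2 lower, with a median of 0.04. The activators Clock and Arntl had -0.54 ± 0.16 and -0.71 ± 0.28, and Dbp, a clock output factor, had 0.62 ± 0.30. The time of day of tissue collection is not given in the sources used here. At weeks 2 and 8, 14 clock genes were higher and 1 lower at unadjusted p under 0.05, against 6.68% and 7.2% of all genes, and 0 were called.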
